A study of Mus musculus with 6 samples.

Results

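The miR-19 and miR-25/92 seed families are 2 groups of microRNAs (miRNAs) that share, within each group, the bases that pair with target messages. The array carried 1 probe for each of 5 members: mmu-miR-19a and mmu-miR-19b of the miR-19 family, and mmu-miR-25, mmu-miR-92a and mmu-miR-363 (listed as miR-363-3p) of the miR-25/92 family, mmu standing for mouse. They were chosen by probe name alone, main strands only, and make up 5 of 1096 mouse miRNA probes. All 5 passed the filter on dim probes that left 613 for testing, and 4 of the 5 were above background on all 6 arrays, as were 282 of the 1096.

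MiRNA levels were measured in 6 mouse liver samples on a C57BL6 background by 1-colour arrays of total RNA. Of these, 3 were hepatocellular carcinoma (HCC 1, 2-1 and 2-2) and 2 non-tumour liver (NT 1 and 2) of STAM mice, which receive streptozotocin and a high-fat diet and develop HCC through non-alcoholic steatohepatitis by 18 weeks of age. A single normal liver came from a control mouse, labelled as control strain, for which the labels give no age or diet of its own. The labels do not say whether HCC 2-1 and 2-2 came from separate animals or whether tissue was pooled, so each p-value covers only the spread among the 6 samples as deposited. In bulk tissue, fewer cells of a type and less miRNA per cell cannot be told apart.

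Seed families matter because a miRNA recognises most of its targets through bases 2 to 8, so members with an equal seed can act on overlapping sets of messages. The miR-19 family carries much of the oncogenic activity of the miR-17-92 cluster in mouse B-cell lymphoma. The miR-25/92 family is known for repressing the cell death gene Bcl2l11 and, in human cells, the cell cycle inhibitor Cdkn1c; miR-92a is also known from endothelium and is abundant in red blood cells. Both families are widely described as raised in proliferating cells and in human liver cancer.

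The mature sequences show why the 5 probes fall into 2 groups and how far each pair could share a probe's signal. They are printed 5′ to 3′ from RefSeq (GRCm38.p6), matched by name for 5 of 5 members, with the seed (bases 2 to 8) in capitals.
miR-19a: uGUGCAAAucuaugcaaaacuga
miR-19b: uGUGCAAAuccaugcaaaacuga
miR-25: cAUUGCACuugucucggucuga
miR-92a: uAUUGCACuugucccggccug
miR-363: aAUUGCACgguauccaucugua
Counted from 1 at the 5′ end, miR-19a and miR-19b agree at 22 of 23 positions and differ by U11C. MiR-25 and miR-92a agree at 18 of 21 positions compared without gaps, and differ by C1U, U14C and U18C. MiR-363 shares the seed but matches miR-25 at only 9 of 22 positions and miR-92a at 10 of 21. A probe for miR-19a could bind miR-19b in part, so those 2 readings are uncertain as separate levels. MiR-25 and miR-92a also agree at most positions, and binding of either probe to the other miRNA was not tested.

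The 5 mature miRNAs come from 7 hairpins in 3 clusters, each on 1 strand. The miR-17-92 cluster on chr14:115043671-115044506 (plus strand, 836 bases) holds Mir19a, Mir19b-1 and Mir92-1, the last inside the RefSeq span of the long noncoding RNA Mir17hg. That annotated span starts at base 115044390, and it does not show which hairpins the transcript gives rise to. The miR-106a-363 cluster on chrX:52741693-52742567 (minus strand, 875 bases) holds Mir19b-2, Mir92-2 and Mir363. The miR-106b-25 cluster on chr5:138165321-138165818 (minus strand, 498 bases) holds Mir25 and lies with its 3 hairpins inside the span of Mcm7, a subunit of the helicase that opens DNA for replication. MiR-19b and miR-92a thus have 2 loci each, whose products the array cannot separate, while miR-19a, miR-25 and miR-363 have 1.

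**Figure D1:**
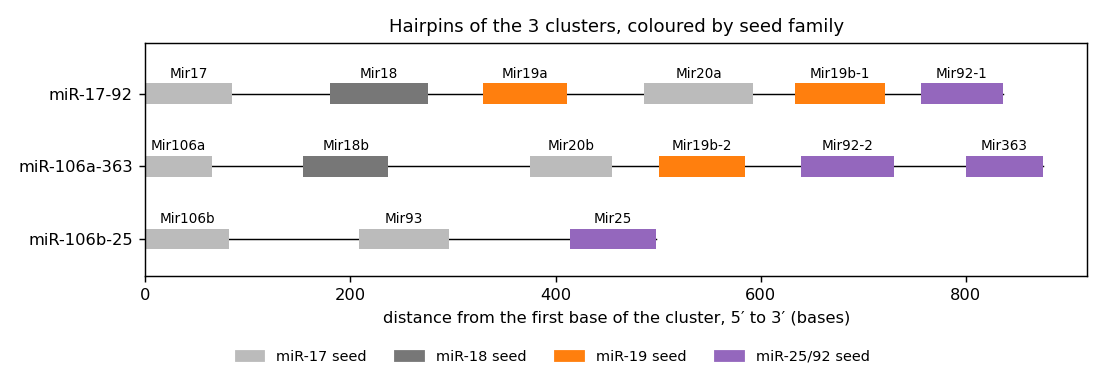
Hairpins of the 3 clusters, drawn to scale from the first base of each cluster (x axis, bases) and coloured by seed family. Hairpins of the miR-19 seed lie in the clusters of 836 and 875 bases only, and hairpins of the miR-25/92 seed end all 3 clusters.

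A spot was called above background from a limit set on each array by its empty spots (2 SD over their mean), which came to 14.5 to 20.7 intensity units. By that limit normal liver had 403 probes of 1096, the NT samples 478 and 490, and the tumours 487 to 540. Each chip carried a pair of arrays, and chip 2 alone (HCC 1 and NT 2) joins tumour and NT. The scanner gain was higher for all tumours (39 to 41) than for the other samples (38), so that its part in a tumour difference cannot be told apart from that of the tissue. The hepatocyte markers miR-122, miR-192, miR-194 and miR-148a were above background on every array. The 3 red blood cell markers miR-451, miR-144 and miR-486 had a summed signal over the blanks of 18 in normal liver, 418 to 540 in NT and 455 to 808 in HCC, with miR-486 (a probe shared with miR-3107) not above background in normal liver. MiR-451 carries this sum, with spots of 26 in normal liver and 418 to 800 in STAM samples, while the spots of miR-144 (16 against 18 to 26) and miR-486 (15 against 18 to 24) stayed near the blanks. The sum of 6 leukocyte markers was 70, 166 to 289 and 144 to 232 in the same order.

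Of the miR-19 family, miR-19a was a dim probe, and none of its differences between groups passed the test. Its spot read 25 in normal liver, 25 (NT 1) and 36 (NT 2) in non-tumour liver, and 46, 39 and 54 in the tumours HCC 1, 2-1 and 2-2. After background correction and quantile normalization (log2 intensity, used for every test unless stated) miR-19a was at 6.15 in normal liver, 6.12 (NT 1) and 6.24 (NT 2) in non-tumour liver, and 6.22, 6.17 and 6.31 in the tumours HCC 1, 2-1 and 2-2. HCC 2-2 was the highest and NT 1 the lowest, and the HCC arrays overlapped those of NT. The difference of HCC minus NT was 0.05 (SE 0.06, 95% interval -0.11 to 0.21, limma's adjusted p 0.840).

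MiR-19a in NT differed from normal liver by 0.03 (SE 0.08, interval -0.18 to 0.25, limma's adjusted p 0.917), with NT 1 below and NT 2 above the normal array. HCC minus normal liver was 0.08 (SE 0.08, interval -0.12 to 0.29, limma's adjusted p 0.631). All 3 HCC arrays lay above the 1 normal array, as for 33% of all tested miRNAs. In the authors' processed intensities, used without an offset, miR-19a read 75.5 in normal liver, 93.6 (NT 1) and 122 (NT 2) in non-tumour liver, and 94.6, 110 and 170 in the tumours HCC 1, 2-1 and 2-2. All 5 STAM arrays lay above normal liver on that scale, with HCC 2-2 the highest. This was common there: every NT array lay above the normal one for 58.9% of 348 miRNAs, and every HCC array for 49.7%. The fold there was 1.41 (0.708 to 2.82) for NT over normal liver and 1.60 (0.833 to 3.07) for HCC over normal liver, and neither passed (limma's adjusted p 0.587 and 0.331).

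MiR-19b, whose spots lay far over the blanks, had the widest spread between tumours of the 5 members. It was at 8.03 in normal liver, 7.79 (NT 1) and 7.87 (NT 2) in non-tumour liver, and 7.48, 7.68 and 8.01 in the tumours HCC 1, 2-1 and 2-2. HCC 1 was the lowest of all arrays and HCC 2-2 was level with normal liver, so that the tumours spanned both NT arrays. The mean was 7.83 ± 0.06 in NT (SD, n = 2) and 7.72 ± 0.27 in HCC (n = 3).

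The difference of HCC minus NT for miR-19b was -0.11 (SE 0.16, interval -0.54 to 0.33, limma's adjusted p 0.891), or between 0.688-fold and 1.26-fold. On chip 2, the sole chip with both tissues, HCC 1 minus NT 2 was -0.39, while without HCC 1 the difference turned to 0.02. Each NT and HCC array was lower than the normal array, as for 35.1% (NT) and 30.8% (HCC) of all tested miRNAs. NT minus normal liver was -0.21 (SE 0.22, limma's adjusted p 0.729) and HCC minus normal liver -0.31 (SE 0.21, limma's adjusted p 0.526). These directions turned with other scalings, for example to 0.25 and 0.41 with equal array medians, and in the authors' processed intensities to 0.25 and 0.02.

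In the authors' processed intensities miR-19b read 776 in normal liver, 826 (NT 1) and 1034 (NT 2) in non-tumour liver, and 559, 724 and 1196 in the tumours HCC 1, 2-1 and 2-2. On that scale the 3 tumours lay on both sides of all other arrays, normal liver included. HCC 1, the tumour lowest for miR-19b, was also the array lowest for miR-122, at 11.61 against 12.38 to 12.65 on the others, and its part in the result was not tested.

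Of the miR-25/92 family, miR-25 was lower in the single normal liver than on all 5 STAM arrays by spot, by normalized value and by the authors' value, and the difference did not pass the test. Its spot read 30 in normal liver, 44 (NT 1) and 55 (NT 2) in non-tumour liver, and 67, 59 and 67 in the tumours HCC 1, 2-1 and 2-2. By spot, normal liver was also the lowest array for miR-92a (30, against 31 to 33 in NT and 32 to 44 in HCC). The same held for miR-19b (145, against 149 to 210 and 164 to 311), and for miR-19a normal liver was level with NT 1 (25). The lowest spot in normal liver is thus not particular to miR-25. MiR-25 was at 6.39 in normal liver, 6.53 (NT 1) and 6.53 (NT 2) in non-tumour liver, and 6.57, 6.56 and 6.49 in the tumours HCC 1, 2-1 and 2-2. Normal liver was the lowest, and the tumours lay on both sides of the NT arrays. Every NT array lay above the normal one for 36.7% of all tested miRNAs, and every HCC array for 33%. NT minus normal liver was 0.13 (SE 0.05, interval 0.00074 to 0.27) and HCC minus normal liver 0.15 (SE 0.05, interval 0.02 to 0.27), with unadjusted p of 0.0492 and 0.0295 in limma's test. Neither passed over the 613 miRNAs, at limma's adjusted p of 0.396 and 0.283.

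The authors' processed intensities for miR-25 were 102 in normal liver, 187 (NT 1) and 215 (NT 2) in non-tumour liver, and 195, 205 and 221 in the tumours HCC 1, 2-1 and 2-2. Every STAM array was thus well above the normal array and the STAM arrays were close to each other, at 201 ± 19.6 in NT (SD, n = 2) and 207 ± 13.0 in HCC (n = 3). The fold was 1.96 (1.15 to 3.35) for NT and 2.03 (1.22 to 3.36) for HCC over normal liver, at limma's adjusted p of 0.161 and 0.0895 over 348 miRNAs with authors' values on all arrays. Of those 348, 1.44% and 4.02% were called, and 58.9% and 49.7% had every NT or HCC array above the normal one. MiR-25 ranked at place 73 and 60 of 348 from the highest in these comparisons, whose median over all 348 was itself 0.33 and 0.32. The offset of 50 added for the normalized values compresses differences of miR-25, whose spots lay 17 to 53 over the blank medians.

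Over the alternatives that were run, miR-25 stayed above normal liver in 17 of 18 for NT and in 17 of 18 for HCC, and passed in none. The exception in both was scaling to equal 75th percentiles of the probes above background on all arrays (-0.02 and -0.15). There the median of all miRNAs moved by -0.34 and -0.62. Relative to that median miR-25 was 0.33 and 0.46 higher, as under every scaling by 1 constant per array, since such a shift cancels. These counts are no set of separate checks. Another filter or prior, or leaving out an array of the group outside the comparison, cannot move the difference. All alternatives also use the same single normal array. The red blood cell marker sum, 18 in normal liver against 418 to 808 in STAM samples, and the leukocyte sum, 70 against 144 to 289, were also higher in STAM samples. So were the endothelial sum (586 in normal liver, 1064 to 1283 in NT and 788 to 1848 in HCC) and the mesenchymal and stellate sum (159, 291 to 509 and 236 to 308), while the bile duct sum was not higher throughout (58, 82 to 100 and 26 to 87). Nor was the hepatocyte sum (7418, 7519 to 8107 and 4574 to 9956). These are sums of spots, and after normalization the markers within a type differed in direction. Of the leukocyte markers, miR-223 was at 6.32 in normal liver and 6.86 to 7.60 in STAM samples, but miR-146a at 6.67 and 6.36 to 6.61. MiR-145 was at 7.41 in normal liver, 7.61 and 7.71 in NT and 6.78 to 6.95 in HCC. Of the hepatocyte markers, miR-192 was at 10.78 in normal liver and 9.88 to 10.25 in STAM samples. MiR-194 and miR-148a were also highest in normal liver, while miR-122 was at 12.38 there and 11.61 to 12.65 in STAM samples. The part of these cell types in the result was not tested. Between HCC and NT, miR-25 differed by 0.01 (SE 0.04, interval -0.08 to 0.11, limma's adjusted p 0.945), and by 1.03-fold (0.693 to 1.54) in the authors' values.

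MiR-92a, which has the same seed as miR-25, had its highest normalized value in normal liver, and no difference passed the test. It was at 6.39 in normal liver, 6.32 (NT 1) and 6.19 (NT 2) in non-tumour liver, and 6.22, 6.07 and 6.19 in the tumours HCC 1, 2-1 and 2-2. Normal liver was the highest and HCC 2-1 the lowest, and HCC 1 lay above NT 2, so HCC and NT overlapped. Every NT array lay below the normal one for 35.1% of all tested miRNAs, and every HCC array for 30.8%. The mean was 6.26 ± 0.09 in NT (SD, n = 2) and 6.16 ± 0.08 in HCC (n = 3).

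HCC minus NT was -0.10 for miR-92a (SE 0.07, interval -0.28 to 0.08, limma's adjusted p 0.729), and 0.03 on chip 2. Without NT 1 it was -0.03 and without NT 2 -0.16. NT minus normal liver was -0.13 (SE 0.09, interval -0.38 to 0.11, limma's adjusted p 0.581), or -0.20 without NT 1 and -0.07 without NT 2. HCC minus normal liver was -0.23 (SE 0.09, interval -0.46 to -0.0053), with an unadjusted p of 0.0466 and limma's adjusted p of 0.3. The direction depended on the scaling: the differences from normal liver turned to 0.06 and 0.12 with equal array medians. With 75th percentiles of the probes above background on all arrays HCC minus normal liver was -0.56 and passed (limma's adjusted p 0.0155), as 484 of 613 miRNAs (79%) were called lower there, and miR-92a lay 0.05 above the median of all miRNAs.

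The authors' processed intensities for miR-92a were 90.2 in normal liver, 107 (NT 1) and 110 (NT 2) in non-tumour liver, and 99.2, 88.6 and 105.98 in the tumours HCC 1, 2-1 and 2-2. Normal liver thus lay among the lowest arrays on that scale rather than at the top, and both NT arrays were above all 3 tumours, as for 17.2% of 348 miRNAs. The fold was 1.20 (0.703 to 2.05) for NT and 1.08 (0.654 to 1.79) for HCC over normal liver, and neither passed (limma's adjusted p 0.745 and 0.838).

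MiR-363, the member at the 3′ end of the X-linked cluster, was at the level of the blank spots in most samples. Its spot read 13 in normal liver, 13 (NT 1) and 11 (NT 2) in non-tumour liver, and 21, 17 and 18 in the tumours HCC 1, 2-1 and 2-2, against blank medians of 13, 12, 13, 18, 15 and 14 on the same arrays. It was above background in HCC 1 and HCC 2-2 (2 of 3 tumours) and not well above background in HCC 2-1, NT or normal liver. The authors' processed table gives it a value in the 3 tumours only, at 9.60, 8.73 and 8.52.

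Normalized, miR-363 was at 5.75 in normal liver, 5.78 (NT 1) and 5.68 (NT 2) in non-tumour liver, and 5.83, 5.77 and 5.84 in the tumours HCC 1, 2-1 and 2-2. HCC 2-1 lay just under NT 1, so the groups overlapped. MiR-363 passed the filter on dim probes only through 2 tumour arrays, which favours a higher value in HCC, so its differences of 0.08 from NT and 0.06 from normal liver are given as a description with no test.

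**Figure D2:**
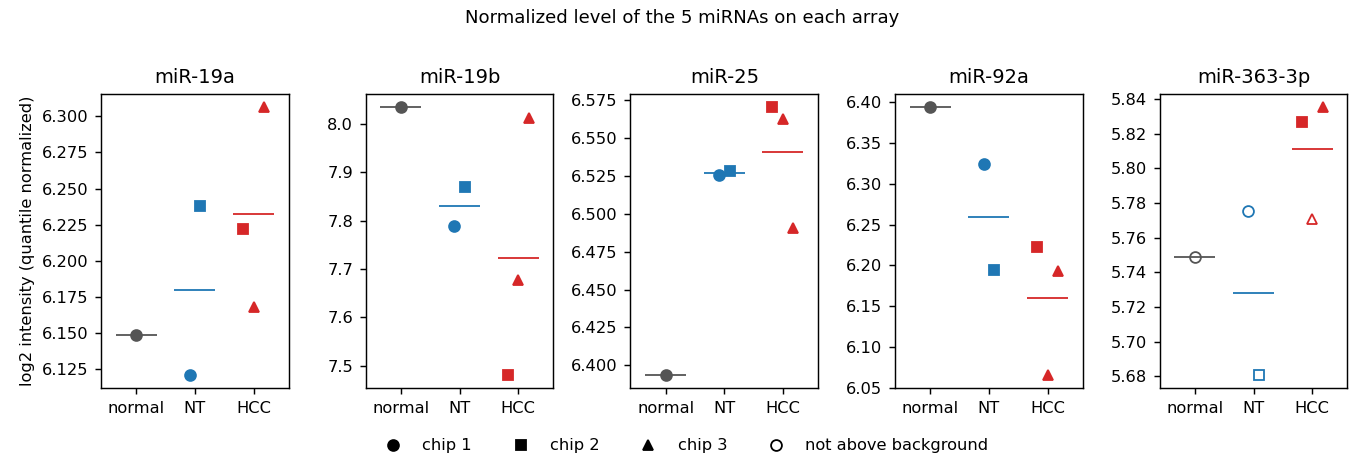
Quantile-normalized log2 intensity (y axis, own range per panel) of the 5 members on each of 6 arrays, by group, with a line at each group's mean, marker shape for the chip and open markers where the spot was not above background. Normal liver is the lowest array for miR-25 (6.39) and the highest for miR-92a (6.39) and miR-19b (8.03). The normal array fell outside the HCC range for 63.8% of all tested miRNAs.

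**Figure D3:**
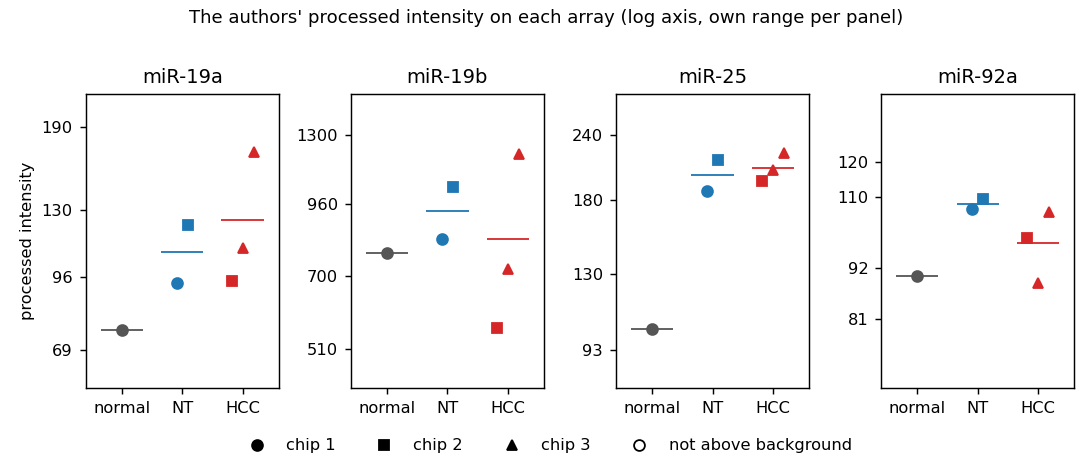
The authors' processed intensity (y axis, log scale, own range per panel) of the 4 members that have a value on all 6 arrays, with a line at each group's mean. For miR-25 the 5 STAM arrays lie between 187 and 221 and normal liver at 102. Every NT array lay above the normal one for 58.9% of 348 miRNAs, and every HCC array for 49.7%.

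As a group, the 5 members showed no difference between tumours and non-tumour liver that passed the test. In HCC minus NT, 0 of 5 were called by limma's adjusted p under 0.05, against 0% of the 613 tested miRNAs, and 0 of 5 had an unadjusted p under 0.05, against 56 of 613 (9.14%). In direction 3 members were higher and 2 lower, with a median of 0.01 and a range of -0.11 to 0.08, where the median of all 613 was 0.0013. The upper end of that range is miR-363, which the filter favoured in HCC, and the other 4 members were 2 higher and 2 lower. HCC and NT arrays did not overlap for 0 of 5 members, against 23.7% of all tested miRNAs. MiR-363 stands in these counts, and in those against normal liver, as a description only. Without it, none of the other 4 members was called or had an unadjusted p under 0.05 in HCC minus NT.

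In NT minus normal liver 0 of 5 members were called, against 0.163% of tested miRNAs, and 1 of 5 (miR-25) had an unadjusted p under 0.05, against 12.6%. Here 2 members were higher and 3 lower, with a median of -0.02. Both NT arrays lay above the normal one for 1 member (36.7% of all tested) and below it for 2 (35.1%), or 71.8% of all tested in either direction. In HCC minus normal liver 0 of 5 were called, against 0.163%, and 2 of 5 (miR-25 and miR-92a, in opposite directions) had an unadjusted p under 0.05, against 16.2%. The single called miRNA in both was miR-451 of red blood cells, and the count was 0 without NT 1, NT 2, HCC 1 or HCC 2-2 in turn. Both comparisons use the same single normal array, and the normal array fell outside the HCC range for 63.8% of all tested miRNAs, so that 5 of 5 members doing so, 3 higher (33% of all tested), miR-363 among them, and 2 lower (30.8%), is a description.

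**Figure D4:**
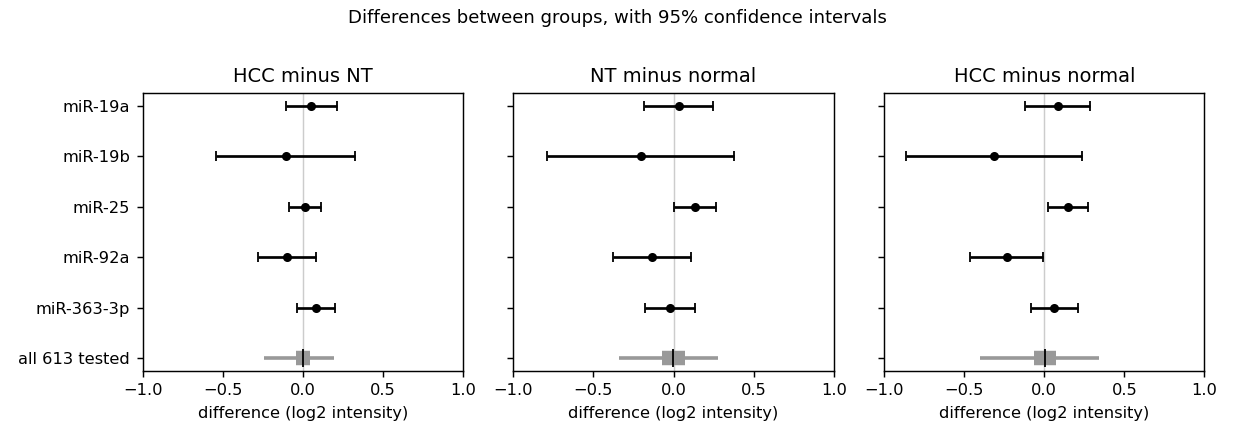
Differences between groups (x axis, log2 intensity) of the 5 members with 95% confidence intervals from the limma fit, above the spread of all 613 tested miRNAs (thick bar the quartiles, thin bar the 5 to 95 percentiles, tick the median). For HCC minus NT all 5 intervals include 0, that of miR-363 shown as a description because the filter favoured it in HCC. The intervals of miR-25 lie above 0 in both comparisons with normal liver and that of miR-92a below 0 in HCC minus normal liver, all before adjustment over 613 miRNAs.

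Of the 3 other miRNAs with the miR-25/92 seed, 2 (miR-92b and miR-367) passed the filter on dim probes. In HCC against NT 0 of these were called, as were 0% of all tested, with miR-367 a description only. The 3 are miR-92b, miR-32 and miR-367, shown here to set their shared seed beside their other bases.
miR-92b: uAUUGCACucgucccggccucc
miR-32: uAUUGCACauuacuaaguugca
miR-367: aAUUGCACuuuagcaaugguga
MiR-92b matches miR-92a at 19 of 21 positions (U10C and G21C), and binding of either probe to the other miRNA was not tested. MiR-92b was above background on all 6 arrays, at 5.98 in normal liver, 6.02 (NT 1) and 5.92 (NT 2) in non-tumour liver, and 5.90, 5.88 and 5.91 in the tumours HCC 1, 2-1 and 2-2. By normalized value the 3 tumours were the lowest arrays (lower without overlap for 12.7% of all tested), by a difference of -0.07 from NT (SE 0.04, limma's adjusted p 0.658). The probe was near the blanks, 6 to 9 units over their medians. By spot the tumours were not lowest, at 21 to 26 against 20 in normal liver and 20 to 21 in NT. MiR-367, known from embryonic stem cells, was above background on 2 of 6 arrays, both of them tumours (HCC 1 and HCC 2-1). The filter thus favoured a higher value of miR-367 in HCC, as for miR-363. MiR-32 was above background on 1 of 6 arrays and was not tested.

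The members share their 3 clusters with 8 miRNAs of the miR-17 and miR-18 seeds, known to promote entry into the cell cycle, and of these too none was called. In HCC minus NT 7 of 8 were higher, against 313 of all 613, with a median of 0.12 and a range of -0.06 to 0.24. By limma's test 0 of 8 passed, as did 0 of 613 (adjusted p 0.465 to 0.951 for the 8), and 2 of 8 (miR-93 and miR-106a) had an unadjusted p under 0.05, against 9.14% of all tested. HCC was higher than NT without overlap for 3 of 8 (10.9% of all tested) and lower for 1 of 8 (12.7%). The 3 were miR-93, miR-106a and miR-18a, and in the authors' processed intensities the groups overlapped for each. There HCC 1 lay below NT 1 and NT 2 for miR-93 (263 against 291 and 302) and miR-106a (276 against 280 and 370). For miR-18a it lay below NT 2 (46.7 against 63.0). The 1 lower was miR-18b, a probe near the blanks, with spots of 15 to 17 in NT and 17 to 18 in HCC. It was above background in 1 of 3 tumours. MiR-93, next to miR-25 inside Mcm7, was at 6.80 in normal liver, 6.77 (NT 1) and 6.73 (NT 2) in non-tumour liver, and 6.85, 6.95 and 6.92 in the tumours HCC 1, 2-1 and 2-2. By these normalized values its tumours all lay above the other 3 arrays (HCC above NT without overlap for 10.9% of all tested), by 0.15 over NT (SE 0.04, limma's adjusted p 0.465), where miR-25 of the same cluster differed by 0.01. MiR-106b, the third of that cluster, was at 6.59 in normal liver, 6.66 (NT 1) and 6.82 (NT 2) in non-tumour liver, and 6.89, 6.79 and 6.78 in the tumours HCC 1, 2-1 and 2-2. Like miR-25 it was lowest in normal liver, where NT lay above the normal array for 36.7% of all tested miRNAs and HCC for 33%. HCC minus normal liver was 0.23 for miR-106b (SE 0.08, limma's adjusted p 0.297). These differences between cluster mates were not tested against each other.

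Of 7 probes for the other strands of the members' hairpins, 3 were tested and 2 were above background on all 6 arrays. The other strand of miR-363 (miR-363-5p) was brighter than the background where the main strand was not: its spot read 17 in normal liver, 17 (NT 1) and 22 (NT 2) in non-tumour liver, and 33, 32 and 38 in the tumours HCC 1, 2-1 and 2-2. Normalized, miR-363-5p was at 5.89 in normal liver, 5.88 (NT 1) and 5.97 (NT 2) in non-tumour liver, and 6.04, 6.07 and 6.16 in the tumours HCC 1, 2-1 and 2-2. All 3 tumours lay above the other arrays (higher than NT without overlap for 10.9% of all tested), by 0.17 over NT (SE 0.05, unadjusted p 0.0272, limma's adjusted p 0.536). In the authors' processed intensities miR-363-5p of HCC 1 (51.8) lay below that of NT 2 (54.6), so the groups overlapped there.

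The other strand of the Mir92-2 hairpin, miR-92a-2*, shares no seed with the family and is guanine-rich, as its sequence shows with bases 2 to 8 in capitals.
miR-92a-2*: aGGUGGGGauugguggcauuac
MiR-92a-2* was at 6.59 in normal liver, 6.29 (NT 1) and 6.30 (NT 2) in non-tumour liver, and 6.24, 6.43 and 6.43 in the tumours HCC 1, 2-1 and 2-2. Like miR-92a it was highest in normal liver, where NT lay below the normal array for 35.1% of all tested miRNAs and HCC for 30.8%. NT minus normal liver was -0.29 (SE 0.09, unadjusted p 0.0295, limma's adjusted p 0.364). In the authors' processed intensities normal liver (153) was not the highest for miR-92a-2*, since HCC 2-2 read 190. Probes for miR-19a*, miR-19b-1*, miR-19b-2* and miR-92a-1* were above background on at most 1 array and were not tested, and miR-25* on 3 of 6 arrays.

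Pearson's r of normalized values across the 6 arrays was 0.15 for miR-19a with miR-19b, which share a seed and a cluster, and -0.72 for miR-25 with miR-92a, which share a seed. MiR-19b with miR-92a, which share 2 clusters, gave 0.41, while miR-19a with miR-92a, which share 1 cluster, gave -0.42. Of the pairs that share neither seed nor cluster, miR-19b with miR-25 gave -0.83 and miR-19a with miR-25 gave 0.14. These are descriptions over 6 arrays of 3 groups that share normalization, chips and the single normal liver. Among 281 other miRNAs above background on all arrays, the pattern most like miR-25 was that of miR-23a (r 0.97), then miR-98 (0.91) and miR-690 (0.90). Most like miR-92a were miR-3100-5p (0.98), miR-1935 (0.96) and miR-138-2* (0.94), and most like miR-19b were miR-669f-5p (0.94), miR-30e (0.83) and miR-203 (0.83). For miR-19a they were miR-1892 (0.93), miR-486* (0.91) and miR-17* (0.91).

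**Figure D5:**
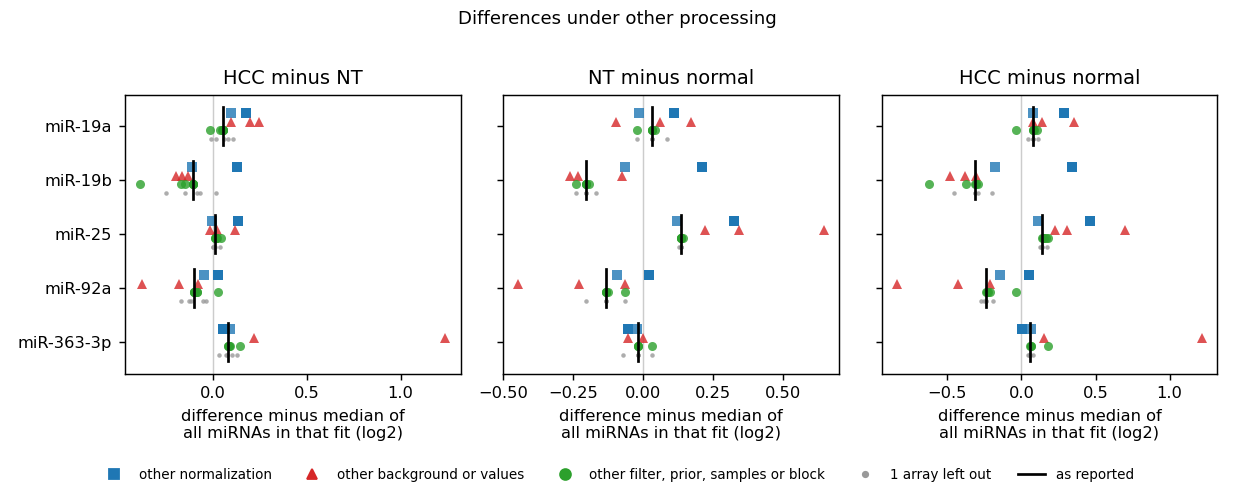
Difference of each member minus the median difference of all miRNAs in the same fit (x axis, log2, own range per panel) under each alternative processing, with a black line at the value as reported. MiR-25 stays to the right of 0 in both comparisons with normal liver under each alternative shown, while miR-19b and miR-92a fall on both sides. Scalings by a constant per array cannot differ on this axis, since such a shift cancels, so they are no separate checks. With equal 75th percentiles of the probes above background on all arrays, miR-25 was below 0 before the median was subtracted. It was -0.02 in NT minus normal liver and -0.15 in HCC minus normal liver.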

How the data were processed

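Per the labels, total RNA was labelled with Hy5 and, per the file headers, read at 635 nm on Toray chips for mouse miRNAs (design version 17). Deposited scanner files hold the intensity of each spot and its local background as pixel medians, with no background subtraction or normalization recorded per the file headers. The authors' deposited table of processed intensity has a median of 25 on each array. Set against the spots it is linear and uncentred (r 0.99996 to 0.99999) and runs in the scanner's direction, with 0 near the blank level; the rule for its background and empty values is unknown.

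With limma 3.58.1 (R 4.3.3), intensities were corrected by normexp (offset 50), log2 transformed and quantile normalized over 1095 mouse probes; 1 probe with a failed spot was left out. Background was the mean plus 2 SD of blank spots without the top and bottom 5%. Probes above it on at least 2 arrays (613) entered one limma fit of the 3 groups (degrees of freedom: 3 residual, 1.63 prior), with 2-sided moderated tests adjusted by Benjamini-Hochberg at 0.05 within a comparison. Normal liver adds no residual degree of freedom, so its spread is assumed equal to that of the other groups. Forcing all arrays to 1 distribution can understate the spread. Of the tested probes 83.4% had a mean signal over the blanks under the offset, which pulls their differences toward 0. The number of arrays limits the precision.

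Members were taken by probe name. The fit was tested on simulated data. All 5 members are named; related miRNAs are those of the same seed, the same clusters and the other strands, and the likest patterns are the 3 highest correlations per member. Members and lists were chosen with earlier results of these data known. In 20 alternatives the scaling, background, values, filter, prior, samples and blocks were changed; 2 of them, the scalings by probes above background on all arrays, were chosen after seeing the data.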

Additional observations from a re-analysis of the deposited data

How the results depend on the processing

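Of 274 member differences recomputed over 20 alternatives, 229 kept their direction and side of the threshold, 44 turned in direction and 1 (miR-92a) became a call in its own direction. MiR-363 could not be fitted in the authors' values or among the probes above background on all 6 arrays. The cause of these turns was not tested. Values are log2 differences. With equal array medians miR-19b and miR-92a turned to 0.16 and 0.058 (HCC minus NT), 0.25 and 0.062 (NT minus normal liver) and 0.41 and 0.12 (HCC minus normal liver). With equal array 75th percentiles they turned to 0.11 and 0.012, 0.22 and 0.037, and 0.34 and 0.0495, and miR-363 to -0.0012 (HCC minus normal liver). In the authors' values miR-19b and miR-92a turned to 0.25 and 0.26 (NT minus normal liver) and 0.016 and 0.11 (HCC minus normal liver). With equal medians of the probes above background on all arrays, miR-25 turned to -0.0061 and miR-363 to -0.084 (HCC minus NT), miR-19a to -0.022 and miR-19b to 0.078 (NT minus normal liver), and miR-19b to 0.069 and miR-363 to -0.27 (HCC minus normal liver); the median of all miRNAs moved by -0.14, -0.13 and -0.28. With their 75th percentiles it moved by -0.27, -0.34 and -0.62. There miR-19a, miR-25 and miR-363 turned to -0.091, -0.13 and -0.21 (HCC minus NT), miR-19a and miR-25 to -0.24 and -0.0196 (NT minus normal liver), and miR-19a, miR-25 and miR-363 to -0.33, -0.15 and -0.61 (HCC minus normal liver). In the last comparison 2 members, miR-92a and miR-363, were called lower with 79% of all miRNAs, where miR-363 is given as a description. Cyclic loess gave -0.0028 for miR-25 (HCC minus NT) and -0.019 for miR-19a (NT minus normal liver), and blank subtraction -0.098 for miR-19a (NT minus normal liver).

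With the chip as a block miR-19a turned to -0.016, -0.027 and -0.043 in HCC minus NT, NT minus normal liver and HCC minus normal liver, miR-92a to 0.028 (HCC minus NT) and miR-363 to 0.027 (NT minus normal liver). Leaving out 1 array at a time, HCC minus NT ran from -0.0056 to 0.11 for miR-19a, from -0.25 to 0.015 for miR-19b, from -0.00052 to 0.039 for miR-25 and from -0.16 to -0.034 for miR-92a. NT minus normal liver ran from -0.027 to 0.089 for miR-19a, from -0.20 to -0.07 for miR-92a and from -0.068 to 0.027 for miR-363. The label numbers 1 and 2 are not said to mark shared animals; with them as a replicate block miR-25 was 0.02 in HCC minus NT and 0 members were called. Samples of like number deviated together only weakly (r 0.164 across miRNAs, 1 contrast), so the block is no main result.

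The count of called miRNAs among all tested (0, 1 and 1 in HCC minus NT, NT minus normal liver and HCC minus normal liver) was 20, 17 and 39 with equal medians of the probes above background on all arrays, and 15, 9 and 498 (484 lower, 14 higher) with their 75th percentiles. It was 3, 5 and 8 with the trended and robust prior, 0, 5 and 14 in the authors' values, and 1 for HCC minus NT with no filter. It was 0 for NT minus normal liver with equal array medians, equal array 75th percentiles and the chip as a block, 0 for HCC minus normal liver with the chip as a block, and 0 to 1 in both when 1 array was left out. Signals of -2 to 53 intensity units over the blanks limit miR-19a, miR-25, miR-92a and miR-363.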
